A study of Caenorhabditis elegans with 20 samples.

Results

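The genes described here are the short-chain dehydrogenase genes named dhs and the aldehyde dehydrogenase genes named alh of Caenorhabditis elegans. They were chosen by name: every row of the count table whose gene name starts with dhs or alh, without alh-8. This gave 42 genes, 30 dhs and 12 alh, of 28301 rows. They were measured by RNA sequencing of poly(A) RNA from whole L4 larvae, the last larval stage, in 4 groups of 5 libraries. Wild-type animals (N2 in the column names) and nhr-131 mutants, whose allele is not given in the sources used here, were each exposed in liquid culture for 4 h to 2.5 µM F17, a compound known here by this code only, or to the solvent DMSO at 0.1%. The DMSO content of the F17 cultures is not given in the sources used here. The gene nhr-131 belongs to the nuclear hormone receptor family, and whole animals of all 4 groups grew from synchronized L1 larvae.

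Short-chain dehydrogenases are a large family of NAD(P)-dependent enzymes that oxidise alcohols or reduce ketones on steroids, fatty acyl chains, sugars and foreign compounds. Aldehyde dehydrogenases oxidise aldehydes to acids, and several serve fixed steps of amino acid, folate or lipid metabolism. Members of both families take part in the handling of foreign compounds in animals, between the enzymes that first oxidise a compound and those that conjugate it.

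Libraries held between 12836432 and 26908383 counts, and ribosomal RNA genes took 2.24% to 27.5% of them. The nhr-131 transcript had 77 to 196 counts in each wild-type library and 0 to 4 in each mutant library. The libraries of a group differed in a stage score, the mean z-score of 11 genes that mark the passage from L4 to adult. Called younger here, from expression alone, are 6 libraries with the lowest scores of their groups, which a principal component holding 53.9% of the within-group variation set off from the other 14. In wild type these were libraries a and c under DMSO and a and d under F17, and in nhr-131 library c of each treatment. Those of letter c also had the low ribosomal RNA shares of 2.91%, 3.75% and 2.24%. Over the 20 libraries the summed level of the 42 genes moved with this split: it was 2490 to 2694 CPM (counts scaled to a common library size) in the younger libraries and 2879 to 4756 CPM in the other 14. The sum weighs the genes of highest level most, and single members moved either way, as given below. It was not compared with sums of other genes, and the split itself was drawn from expression. Of 38 marker genes of 7 tissues, all were above 0 in every library, and pgp-1 (intestine, higher with F17 in wild type) and dpy-7 (hypodermis, lower in nhr-131 under F17) alone passed a test in any comparison. The summed oocyte markers were 17.9 to 104 CPM in wild type with DMSO and 70.5 to 149 CPM in wild type with F17. Their part in the results below was not tested. In whole animals, fewer cells of a type and less RNA per cell cannot be told apart.

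Nearly all of the genes were expressed. Of the 42, 41 had enough counts for a test, all 30 dhs and 11 of 12 alh. alh-2 had 6 counts over the 20 libraries, 0 to 2 in each, which is below the floor of 3 counts per library. Levels per kb of exon spanned a wide range. dhs-28, a peroxisomal enzyme that shortens the side chains of ascaroside pheromones, had the highest mean over the 20 libraries, 317 CPM per kb. alh-1, a relative of the mitochondrial ALDH2 of mammals, followed at 273 CPM per kb, and dhs-25 at 215 CPM per kb. The next were alh-13 (172 CPM per kb), the pyrroline-5-carboxylate synthase that makes proline's precursor, and dhs-3 (152 CPM per kb), a protein of intestinal lipid droplets.

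The spread within groups was wide for several of these. In wild type with DMSO, dhs-28 stood at 286 ± 114 CPM per kb and alh-13 at 134 ± 98.5 CPM per kb (SD, n = 5). alh-1 was at 271 ± 53.6 CPM per kb there, so the order of dhs-28 and alh-1 was not separated by their spread. Other aldehyde dehydrogenases with a fixed metabolic step ranked between 7 and 16 of the 42. alh-9, related to antiquitin of lysine breakdown, averaged 77.8 CPM per kb, and alh-3, a 10-formyltetrahydrofolate dehydrogenase, 74.2 CPM per kb. alh-4, a fatty aldehyde dehydrogenase, averaged 66.9 CPM per kb, alh-7, a succinate-semialdehyde dehydrogenase, 41.9 CPM per kb, and alh-6, the pyrroline-5-carboxylate dehydrogenase of proline breakdown, 39.9 CPM per kb. At the low end were dhs-16, a hydroxysteroid dehydrogenase of dafachronic acid synthesis, at 3.53 CPM per kb, and dhs-15 at 0.331, dhs-31 at 0.546 and dhs-26 at 0.770 CPM per kb. dhs-15, dhs-26 and dhs-31 had libraries at 0 counts. By the names of assembly WBcel235, 15 of the 42 genes lie on chromosome V, 8 on X, 6 each on II and III, 4 on I and 3 on IV.

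**Figure D1:**
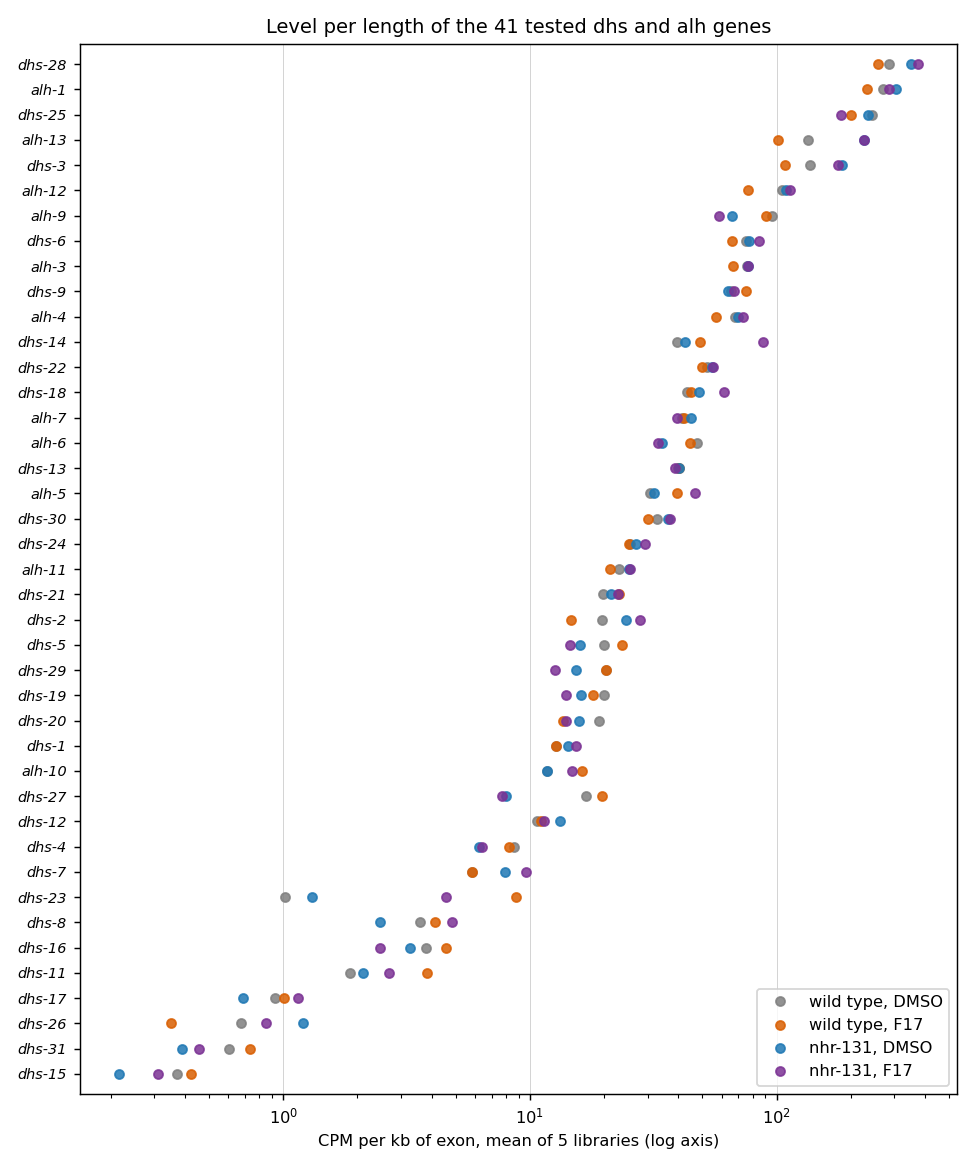
Mean level of the 41 tested genes in each of the 4 groups, in CPM per kb of exon on a log axis, each point the mean of 5 libraries. The genes run from dhs-28 (mean 317 CPM per kb) down to dhs-15 (0.331 CPM per kb), and dhs-23 is the gene whose F17 groups stand farthest to the right of its DMSO groups.

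The first comparison asked which of these genes F17 altered in wild type. dhs-23 alone rose: 1 of the 41 genes was called by edgeR's quasi-likelihood test at an adjusted p under 0.05, against 0.928% of all 13795 genes tested in either direction (128 genes) and 0.768% higher. With DMSO its level in libraries a to e was 1.52, 1.41, 0.472, 0.903 and 0.564 CPM. With F17 it was 12.04, 6.55, 7.07, 9.31 and 7.25 CPM. Every F17 library lay above every DMSO library, although the DMSO values rest on only 10 to 29 counts per library across both genotypes. The means were 0.973 ± 0.476 CPM and 8.44 ± 2.27 CPM (SD, n = 5), and the log2 fold change was 3.13 (SE 0.32, adjusted p = 3.54e-06, edgeR's quasi-likelihood test). Per length, dhs-23 stood at 1.02 CPM per kb with DMSO and 8.81 CPM per kb with F17, which still left it among the lower members.

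The other 40 genes did not pass in wild type. Over the 41 genes the median log2 fold change was -0.000265, beside -0.0113 for all genes tested, with 20 estimates above 0 and 21 below. At an unadjusted p under 0.05 there were 4 members, beside 7.6% of all genes. For 28 of the 40 the 95% interval of the F17 effect lay within a 2-fold change either way, and for 12 it reached beyond. The widest interval was that of dhs-15, from -2.07 to 2.35 on the log2 scale.

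alh-10 and alh-5 were next in order of p. alh-10 read 22.6, 19.3, 22.8, 14.3 and 18.0 CPM with DMSO and 28.9, 24.5, 23.2, 33.7 and 23.8 CPM with F17. The groups did not overlap, which was the case for dhs-23 and alh-10 among the 41 genes and for 2.36% of all genes, but the gap was narrow. The log2 fold change of alh-10 was 0.47 (SE 0.15, adjusted p = 0.314, edgeR). alh-5 read 42.2, 42.5, 34.0, 42.6 and 50.5 CPM with DMSO and 49.7, 49.6, 54.1, 56.5 and 62.7 CPM with F17, and its log2 estimate was 0.36 (SE 0.13, adjusted p = 0.401, edgeR). Its groups overlapped through library e with DMSO. With the stage score as a covariate both passed, alh-10 at 0.42 (adjusted p = 0.0427) and alh-5 at 0.41 (adjusted p = 0.0349, edgeR), beside 1.95% of all genes called in that fit. The fatty aldehyde dehydrogenase gene alh-4 had a log2 estimate of -0.27 (SE 0.11, adjusted p = 0.549, edgeR).

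**Figure D2:**
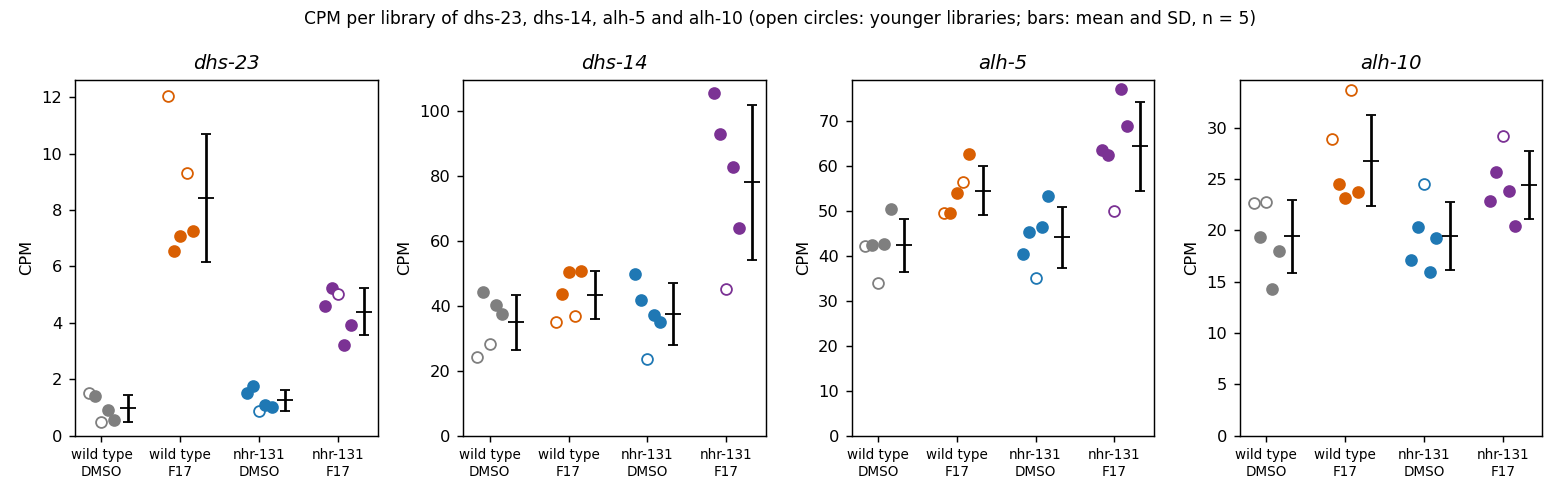
Level of dhs-23, dhs-14, alh-5 and alh-10 in CPM in each of the 20 libraries, by group, with open circles for the younger libraries and bars for mean and SD (n = 5). dhs-23 is higher with F17 than with DMSO in every library of both genotypes, and dhs-14 has its highest values, up to 106 CPM, in nhr-131 with F17.

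Leaving out the 6 younger libraries added members that were lower with F17 in wild type. Then 4 members were called, beside 6.71% of all genes. dhs-23 was higher (2.87). alh-12 (-0.55, adjusted p = 0.0377), dhs-20 (-0.65, adjusted p = 0.0134) and dhs-25 (-0.62, adjusted p = 0.0446, edgeR) were lower. In all 20 libraries the estimates of alh-12, dhs-20 and dhs-25 were -0.46 (adjusted p = 0.83), -0.49 (adjusted p = 0.849) and -0.29 (adjusted p = 0.85), so the estimate of dhs-25 moved as well as its error. This fit had 3 libraries per wild-type group, and the libraries left out were those that varied most within groups, which lowers the spread by construction. With the stage score as a covariate none of these 3 genes passed in edgeR. There alh-12 stood at -0.28 (adjusted p = 0.358), dhs-20 at -0.25 (adjusted p = 0.641) and dhs-25 at -0.26 (adjusted p = 0.645).

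In nhr-131 mutants, dhs-23 and dhs-14 rose with F17. These were 2 of 41 genes, against 0.478% of all genes in either direction (66 genes) and 0.471% higher. DESeq2 called 4 (alh-5 and dhs-8 as well), beside 0.681% of all genes. At an unadjusted p under 0.05 there were 5 members, beside 3.07% of all genes. dhs-23 read 1.51, 1.76, 0.885, 1.102 and 1.02 CPM with DMSO in libraries a to e and 4.59, 5.24, 5.03, 3.21 and 3.91 CPM with F17. The groups did not overlap. The means were 1.25 ± 0.365 CPM and 4.40 ± 0.835 CPM (SD, n = 5), and the log2 fold change was 1.82 (SE 0.31, adjusted p = 0.00377, edgeR's quasi-likelihood test).

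dhs-14 read 49.9, 41.9, 23.6, 37.3 and 35.0 CPM with DMSO and 106, 93.0, 45.2, 82.7 and 63.9 CPM with F17 in the mutant. The 4 F17 libraries other than c lay above every DMSO library, and c, a younger library, lay among the DMSO values. At 45.2 CPM it was above the younger library of the DMSO group, also c, at 23.6 CPM. The log2 fold change was 1.06 (SE 0.23, adjusted p = 0.0382, edgeR). In wild type dhs-14 read 24.1, 44.4, 28.3, 40.1 and 37.5 CPM with DMSO and 35.1, 43.5, 50.5, 36.9 and 50.6 CPM with F17, groups that overlapped, and the log2 estimate was 0.31 (SE 0.23, adjusted p = 0.837). The call of dhs-14 in the mutant stood close to the threshold. It was lost on leaving out any 1 of 9 libraries (d or e of wild type with DMSO, b, c, d or e of nhr-131 with DMSO, and a, b or d of nhr-131 with F17), with adjusted p up to 0.156, and with the 2 mutant groups fitted alone (adjusted p = 0.178). With the stage score as a covariate the estimate was 0.91 (adjusted p = 6.05e-05), and without the younger libraries 1.07 (adjusted p = 0.000227). Those fits called 3 members each (dhs-23, dhs-14 and alh-5), beside 0.848% and 1.04% of all genes.

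The remaining 39 genes did not pass in the mutant. alh-5 came nearest, with 40.5, 45.4, 35.2, 46.4 and 53.3 CPM with DMSO and 63.6, 62.5, 49.99, 77.1 and 69.0 CPM with F17. Only the younger library c of the F17 group lay inside the DMSO range, above the younger library of the DMSO group, also c, at 35.2 CPM. The log2 fold change of alh-5 was 0.55 (SE 0.13, adjusted p = 0.0854, edgeR), and it passed with the stage score as a covariate (0.49, adjusted p = 0.0149). dhs-8 had groups that did not overlap, as did dhs-23 and 0.877% of all genes. It read 2.26 to 4.20 CPM with DMSO and 4.62 to 7.94 CPM with F17, and the log2 estimate was 0.96 (SE 0.27, adjusted p = 0.286). The median log2 fold change over the 41 genes was 0.0362, beside -0.00916 for all genes. For 27 of the 39 genes not called the interval lay within 2-fold.

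Averaged over both genotypes, dhs-23, alh-5 and dhs-14 rose and none of the 41 genes was called lower. Of the 41 estimates 17 were above 0 and 24 below. This comparison uses the same libraries as the 2 before it, so it adds precision and not new samples. It called 3 of 41 members against 1.03% of all genes in either direction (142 genes) and 0.863% higher. The mean effect on dhs-23 was 2.47 (SE 0.22, adjusted p = 3.59e-07). That on alh-5 was 0.46 (SE 0.09, adjusted p = 0.0103), and it passed under each of the 30 alternatives tried, between 0.41 and 0.49. That on dhs-14 was 0.69 (SE 0.16, adjusted p = 0.0415, edgeR), and this call was lost in 14 of 30 alternatives, all of them with 1 library left out, with adjusted p up to 0.103. alh-10 stood at 0.40 (SE 0.11, adjusted p = 0.121), dhs-8 at 0.58 (SE 0.19, adjusted p = 0.327) and dhs-25 at -0.33 (SE 0.16, adjusted p = 0.79). Without the younger libraries 6 members passed, beside 3.67% of all genes: alh-10, alh-5, dhs-14 and dhs-23 higher, dhs-20 (-0.45) and dhs-25 (-0.54) lower. With the stage score as a covariate the 4 higher ones passed, beside 2.1% of all genes, and dhs-20 (-0.27) and dhs-25 (-0.32) did not.

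Whether the F17 effect depended on genotype was tested by the difference of the effects, mutant minus wild type. None of the 41 genes passed, beside 0.246% of all genes (34 genes). There were 3 members at an unadjusted p under 0.05, beside 3.2% of all genes, and DESeq2 and limma-voom each called 0. For dhs-23 the difference was -1.31 (SE 0.43, 95% interval -2.22 to -0.39), with an unadjusted p of 0.00687 and an adjusted p of 0.884 in edgeR's quasi-likelihood test. The 5 wild-type F17 libraries, at 6.55 to 12.04 CPM, all lay above the 5 mutant F17 libraries, at 3.21 to 5.24 CPM. For dhs-14 the difference was 0.74 (SE 0.32, adjusted p = 0.9998) and for alh-4 0.33 (SE 0.15, adjusted p = 0.9998), the latter from an estimate of -0.27 in wild type. The intervals of 23 of the 41 differences reached beyond 2-fold.

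**Figure D3:**
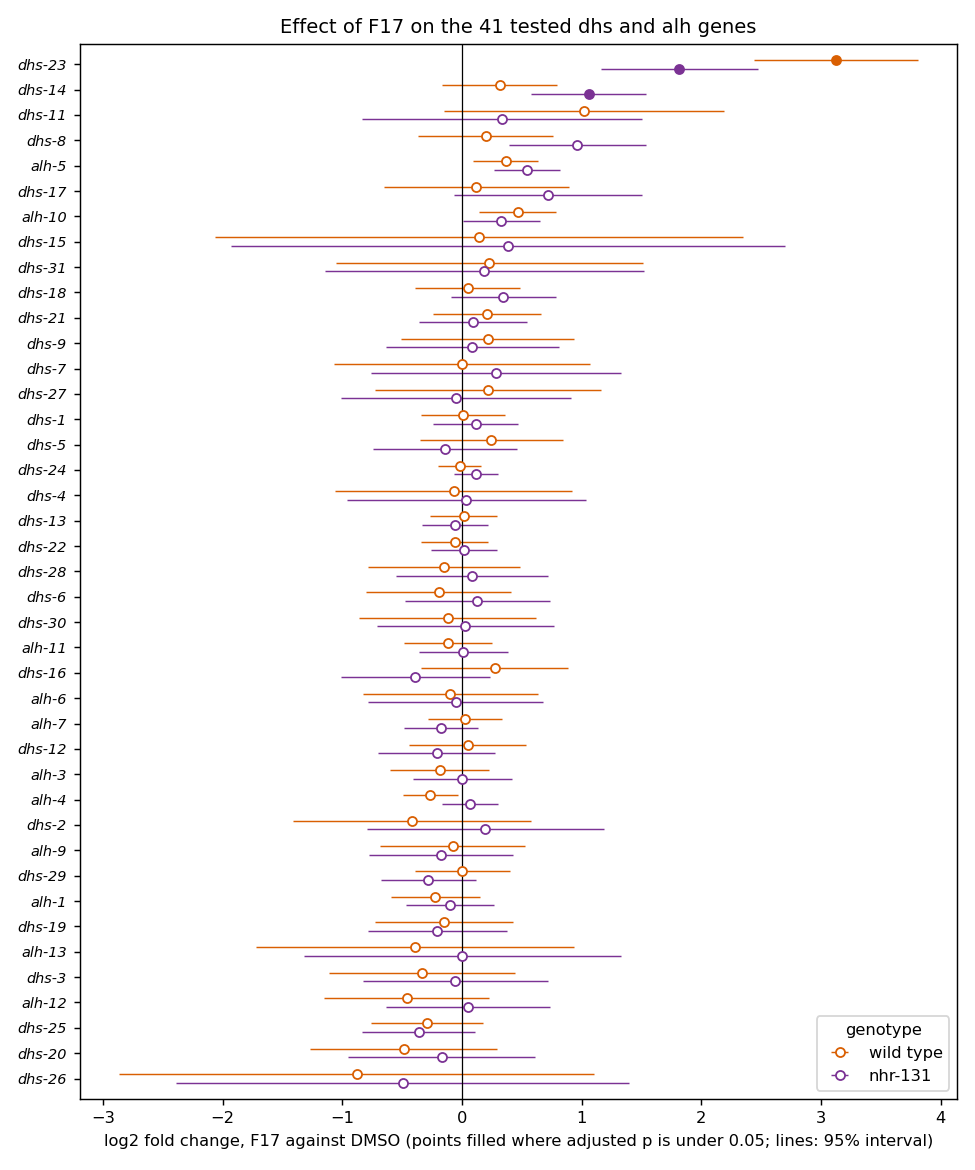
Log2 fold change of F17 against DMSO for the 41 tested genes in wild type and in nhr-131, with 95% intervals and filled points where the adjusted p was under 0.05, ordered by the mean of both effects. dhs-23 stands apart at 3.13 in wild type and 1.82 in nhr-131, dhs-14 is filled in nhr-131 alone, and the intervals of most other genes include 0.

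Both dhs-14 and alh-5 have a neighbour in the gene order of assembly WBcel235 that rose far more with F17. These neighbours were looked up because their members had been called, so they were chosen after values were seen. R05D8.9 (cror-2 in RefSeq), directly beside dhs-14, went from 0.448 ± 0.477 to 11.9 ± 2.13 CPM in wild type (log2 fold change 4.63, adjusted p = 2.87e-05; 6.76 without the younger libraries) and from 0.571 ± 0.287 to 20.8 ± 5.34 CPM in nhr-131 (5.11, adjusted p = 1.67e-05, edgeR; SD, n = 5). R05D8.7 (dhsl-4 in RefSeq), on the other side of dhs-14, was not called (0.41 in wild type and 0.52 in the mutant), nor was dhs-15, which follows R05D8.9 (0.14 and 0.39). clec-206, a C-type lectin gene beside alh-5, went from 1.52 ± 0.553 to 58.3 ± 10.8 CPM in wild type (5.29, adjusted p = 5.26e-12) and from 1.79 ± 0.408 to 175 ± 26.6 CPM in nhr-131 (6.58, adjusted p = 5.66e-13, edgeR). tnt-4, on the other side of alh-5, was not called (0.31 and 0.76). Whether reads of a neighbour or of a close paralog were counted under dhs-14 or alh-5 was not tested. The 4 genes flanking dhs-23, of the srh and str families of chemoreceptors, had too few counts to test.

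With DMSO alone the mutants did not differ from wild type in any of the 41 genes by edgeR's test, beside 0.029% of all genes (4 genes). DESeq2 and limma-voom also called 0. At an unadjusted p under 0.05 there were 2 members, beside 4.17% of all genes, both lower in nhr-131. dhs-27 read 7.65 to 29.2 CPM in wild type and 6.06 to 10.2 CPM in the mutant (log2 fold change -1.08, SE 0.46, adjusted p = 0.985), and its 2 highest wild-type values, 29.2 and 25 CPM, were the younger libraries. dhs-29 read 23.2 to 34.1 CPM and 15.3 to 26.5 CPM (-0.41, SE 0.19, adjusted p = 0.985). dhs-8 had a log2 difference of -0.55 (SE 0.27, adjusted p = 0.985). For 25 of the 41 genes the interval lay within 2-fold, and the median was 0.0452 beside -0.00475 for all genes. Libraries of the genotypes overlapped for each of the 41 genes, beside 0.877% of all genes without overlap.

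With F17 the genotypes did not differ in any of the 41 genes either by edgeR's test, beside 1.28% of all genes (177 genes). At an unadjusted p under 0.05 there were 10 members, 4 higher and 6 lower in nhr-131, beside 15% of all genes. dhs-14 was nearest, at 43.3 ± 7.31 CPM in wild type and 78.1 ± 23.9 CPM in nhr-131 (SD, n = 5), a log2 difference of 0.85 (SE 0.23, adjusted p = 0.0773). dhs-29 followed at -0.70 (SE 0.19, adjusted p = 0.0799) and alh-4 at 0.37 (SE 0.11, adjusted p = 0.112). dhs-23 was lower by an estimate of -0.94 (SE 0.29, adjusted p = 0.133, edgeR). It was the 1 member called by limma-voom, beside 1.49% of all genes. DESeq2 called 4 (alh-4, dhs-14, dhs-23 and dhs-29), beside 3.89% of all genes.

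Libraries did not overlap between the genotypes under F17 for 3 of 41 genes, beside 3.86% of all genes. These were dhs-23 and dhs-16, lower in nhr-131, and dhs-24, higher. The dafachronic acid gene dhs-16 read 5.79, 7.04, 5.32, 7.02 and 5.60 CPM in wild type and 3.06, 3.12, 2.69, 3.21 and 4.50 CPM in the mutant (log2 fold change -0.89, SE 0.29, adjusted p = 0.157). With DMSO its values overlapped widely, at 3.61 to 5.79 CPM in wild type and 1.94 to 7.71 CPM in the mutant. dhs-24 read 44.9 to 49.6 CPM and 50.6 to 60.8 CPM under F17 (0.22, SE 0.09, adjusted p = 0.235).

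Among the F17 libraries 2 of wild type and 1 of nhr-131 were younger, as among the DMSO libraries. The mean stage scores under F17 were -0.364 ± 0.736 and 0.41 ± 1.095 (SD, n = 5). Without the younger libraries 7 members passed, beside 7.55% of all genes. Higher in nhr-131 were alh-13 (0.86), dhs-14 (0.84), dhs-2 (0.70), dhs-3 (0.59) and alh-4 (0.34), and lower were dhs-27 (-1.16) and alh-9 (-0.43). The F17 libraries kept in that fit still differed in stage score, at -0.12 to 0.365 in wild type and 0.444 to 1.19 in nhr-131. With the stage score as a covariate 2 passed, dhs-14 higher and dhs-9 lower, beside 4.61% of all genes. There alh-13 (0.39), dhs-2 (0.30), dhs-3 (0.18), alh-4 (0.27), alh-9 (-0.27) and dhs-27 (-0.89) did not pass. The part of stage in these differences was not tested. Leaving out library c of nhr-131 with F17 alone gave 4 calls (dhs-14, dhs-27, dhs-29 and dhs-5), beside 3.23% of all genes. Leaving out c of wild type with F17 gave 1 (dhs-29), beside 1.27% of all genes. Without c of nhr-131 with DMSO 1 passed as well (dhs-14), beside 1.78% of all genes.

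Many of the genes moved with the stage score. In a fit of the score over 20 libraries, 34 of 41 members had a slope that passed (82.9%, 22 higher with the score and 12 lower), beside 54% of all 13784 genes tested (26.7% higher and 27.2% lower). In the other 14 libraries, which are fewer and span a narrower range of scores, none of the 41 passed by edgeR (0.406% of all genes), with 5 at an unadjusted p under 0.05, beside 6.31% of all genes. Some slopes were about as large there with a wider error: that of dhs-4 was -0.71 (SE 0.45) beside -0.72 (SE 0.10) in all 20, and that of alh-9 was -0.41 (SE 0.12) beside -0.47 (SE 0.05). Others were smaller, such as alh-13 at 0.57 (SE 0.24) and dhs-28 at 0.20 (SE 0.22). The calls thus needed the younger libraries, while the slopes of the 14 alone remain imprecise. The libraries fell into 2 clusters on the score, so the slopes over all 20 largely contrast the younger libraries with the rest.

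The proline genes had slopes of opposite sign. alh-13, the synthase, read 64 to 255 CPM in the 6 younger libraries and 325 to 831 CPM in the other 14, with a slope of 1.11 on the log2 scale per unit of score (SE 0.14, adjusted p = 3.45e-06). alh-6, the dehydrogenase of proline breakdown, read 122 to 179 CPM in the younger libraries and 50.5 to 99.6 CPM in the others, with a slope of -0.56 (SE 0.06, adjusted p = 9.63e-07, edgeR). Neither gene's younger values overlapped with the rest. The share of all genes separated in this way was not counted. The younger libraries were set apart by the expression of all tested genes, these among them, so the gap is no test. Among genes lower in the younger libraries were dhs-7 (slope 0.92), dhs-2 (0.84), the lipid droplet gene dhs-3 (0.64) and the ascaroside gene dhs-28 (0.51). Among those higher in the younger libraries were dhs-4 (-0.72), dhs-27 (-0.66), the lysine breakdown gene alh-9 (-0.47) and dhs-19 (-0.43). The slope of dhs-23 was -0.06 (adjusted p = 0.732).

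**Figure D4:**
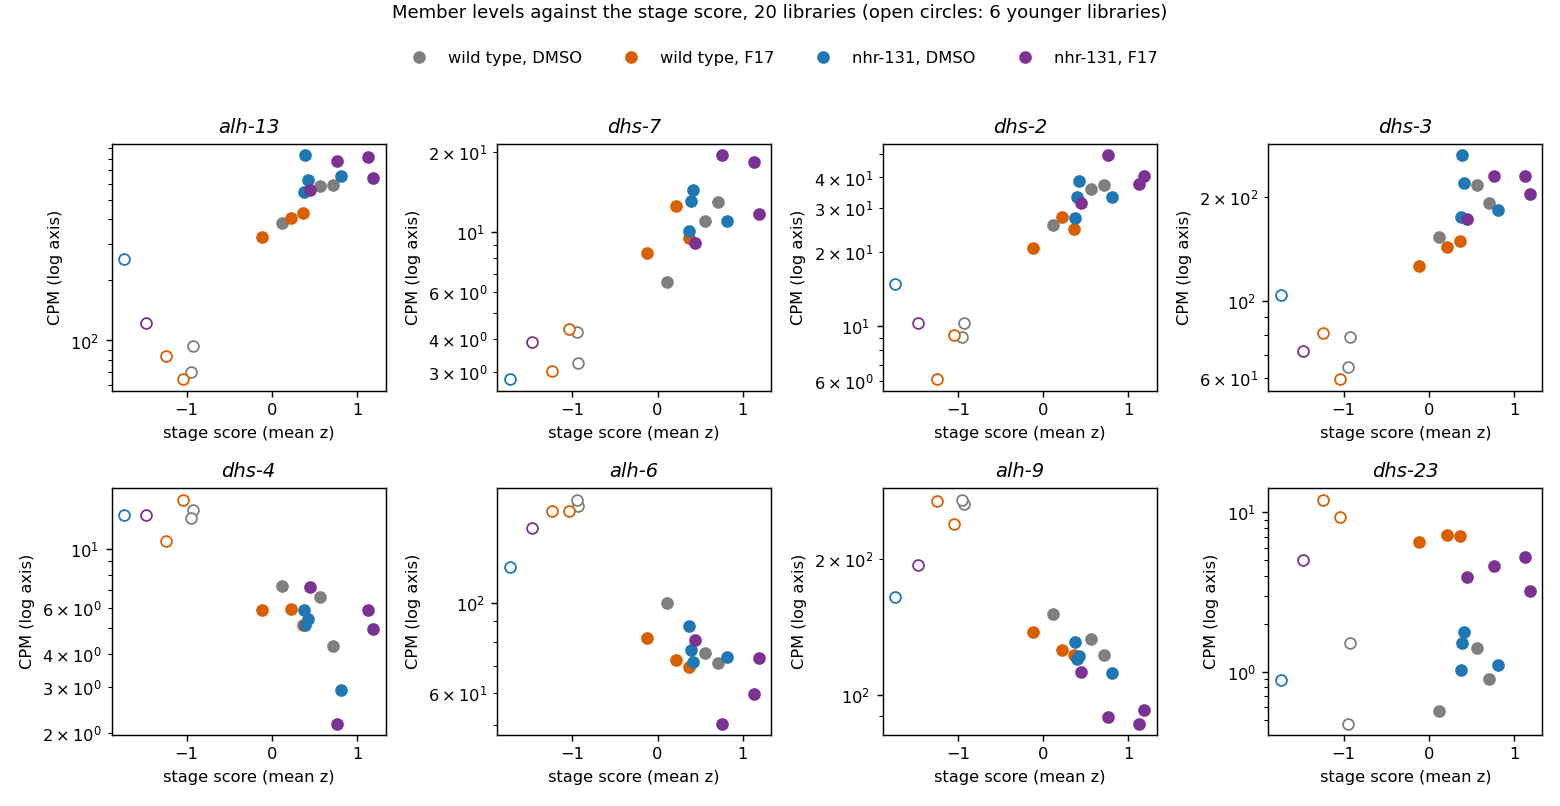
CPM on a log axis against the stage score (mean z-score of 11 genes) in 20 libraries for 8 genes, coloured by group, with open circles for the 6 younger libraries. alh-13, dhs-7, dhs-2 and dhs-3 are low and dhs-4, alh-6 and alh-9 high in the open circles, whereas dhs-23 separates by treatment.

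Relatives outside the dhs and alh names were read from lists fixed by name. Of 17 other short-chain dehydrogenase genes listed 11 were tested, and none of these passed in any of the 6 comparisons by edgeR. One of the 17, sqv-1, had no row under that name. R05D8.9, which rose with F17, and R05D8.7, both beside dhs-14, were not on the list, so its count does not cover them. On the list gale-1, the UDP-galactose 4-epimerase, had the lowest p. In wild type its level was 157 ± 35.7 CPM under DMSO against 90.0 ± 18.8 CPM under F17, and in nhr-131 143 ± 44.3 CPM against 100.2 ± 26.3 CPM (SD, n = 5). Its mean F17 effect was -0.66 (SE 0.17, adjusted p = 0.0791), and it passed with the stage score as a covariate (-0.66, adjusted p = 0.00514) and without the younger libraries (-0.69, adjusted p = 0.00163, edgeR). Of 6 alcohol dehydrogenase names listed 4 were tested and none passed by edgeR. The names adh-1 and adh-5 had no row in the count table. At an unadjusted p under 0.05 there was 1 gene of the first list and 1 of the second in the mean F17 effect, beside 6.31% of all genes.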

How the data were processed

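Per the submitters' processing notes the authors used TopHat2 and HTSeq, and the deposited values are raw whole-number counts of reads per gene with no normalization. Their versions, the build and the annotation: not given in the sources used here. The kit marks strand, but whether counting used it is not stated. Labels describe the replicates as independent biological replicates. Column names carry the group and a letter a to e.

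The fit was made with edgeR 4.0.16 under R 4.3.3: filterByExpr by group (minimum count 10; 13795 genes kept), TMM factors, and 1 robust quasi-likelihood model of 4 group means over 20 libraries (16 residual degrees of freedom). The quasi-likelihood F-test was adjusted by Benjamini-Hochberg over all genes kept, and a gene was called under 0.05. Each SE was derived from the estimate and its F statistic (size of the estimate over root F). CPM use TMM-scaled library sizes. CPM per kb use exon lengths of assembly WBcel235, and so do gene order and chromosomes. Libraries of a group differed by a chi-square of at least 20.8 per degree of freedom, so none was a copy. The script was tested on simulated counts.

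Members and lists were chosen with earlier results of these data known. Named are nhr-131, members called in any of 6 comparisons, the 3 of lowest p not called in each, the 3 dhs and 3 alh genes of highest level and called genes of each list. Other members named were chosen after their values were seen, or are named for their level. Alternatives were DESeq2 1.42.0, limma-voom (limma 3.58.1), 2 other scalings, 2 other filters, ribosomal RNA left out, the groups of a comparison alone, the stage score as covariate, the younger libraries left out, a replicate block and each library left out. The L4-to-adult list behind the stage score had 0 of 11 genes called in any of the 6 comparisons. That does not show groups matched for stage, as these genes varied widely within groups. Between genotypes under F17, 6 of the 11 had an unadjusted p under 0.05 in edgeR, all higher in nhr-131, beside 15% of all genes. Their median log2 difference there was 2.54, beside -0.0308 for all genes.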

Additional observations from a re-analysis of the deposited data

Results flagged for a closer look

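Each group of 5 libraries was examined for a library far from the other 4, for the members that the results turn on and those of highest level. Of 60 groups, 4 held such a library, and chance alone gives about 1 in 20 where the libraries of a group are alike. The younger libraries break that condition. The rule measures the gap from 1 library to the next, so the 2 younger libraries of each wild-type group can mask each other. In nhr-131 with F17, library c had the lowest alh-1 level, 389.9 CPM, where the other 4 read 552.9 to 588.2 CPM. In the same library dhs-28 stood at 285.3 CPM, where the others read 545.5 to 607.1 CPM, and alh-3 at 140.2 CPM, where the others read 228.9 to 255.7 CPM. In nhr-131 with DMSO, library c had an alh-3 level of 156.0 CPM, where the others read 223.4 to 248.8 CPM. Both are younger libraries with low ribosomal RNA shares (2.24% and 3.75%), and the part of either in these values was not tested.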

How the results depend on the processing

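Of 1936 alternative values for 63 results on single genes, 1842 kept their direction and side of the threshold, 25 lost the call, 50 gained one and 19 changed sign. Members called in wild type with F17 were 3 with a stage-score covariate and 4 when the younger libraries were dropped, and 1 with each single library left out. In nhr-131 they were 4 by DESeq2, 1 with its groups fitted alone and 1 to 3 with a library left out. Between genotypes under F17 they were 4 by DESeq2, 1 by limma-voom (beside 1.49% of all genes), 2 with the stage score and 7 without the younger libraries. With a library left out they were 0 to 4, the 4 beside 3.23% of all genes. For the mean F17 effect they were 6 without the younger libraries and 2 to 3 with a library left out. The slope on the stage score, whose alternatives were chosen after seeing the data, had 0 members without the younger libraries. The cause of these shifts was not tested, beyond the smaller spread and fewer libraries without the younger ones.

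Signs turned for estimates near 0, none of them called in the comparison as reported. For F17 in wild type, D2063.1 gave -0.0461 and H24K24.3 -0.0404 without the younger libraries, and D2063.1 ran from -0.137 to 0.404 with a library left out. For F17 in the mutant, nhr-131 gave -0.0409 by limma-voom, -0.0185 without the younger libraries and -0.0702 to 0.434 with a library left out, and its mean F17 effect ran from -0.169 to 0.0832. Between genotypes in DMSO, alh-5 ran from -0.0185 to 0.132 and dhs-14 from -0.0184 to 0.232, and between genotypes in F17 dhs-9 ran from -0.313 to 0.00632, although it passed with the stage score (-0.67, adjusted p = 0.024).

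Column letters do not carry the replicate numbers of the labels, and not every letter's libraries deviated together. Their median correlations were -0.183 for a, 0.237 for b, 0.0764 for c, -0.117 for d and 0.255 for e, with single pairs of c from -0.681 to 0.818 and those of e all above 0, and 6 of 20 libraries correlated best with their own letter. With the letter as a replicate block, 1 member was called in wild type, 2 in nhr-131 (alh-5 and dhs-23, with dhs-14 at adjusted p = 0.0541), 3 for the mean effect and 0 in the other comparisons. Scalings moved the median of all genes by -0.0521 on the log2 scale at the largest. Low counts limit dhs-15, dhs-26 and dhs-31, whose intervals reach beyond 2-fold.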

Other observations

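Some relatives of the dhs and alh genes stood at levels near the highest of them. let-767, a steroid and 3-ketoacyl reductase, was at 593 ± 191 CPM in wild type with DMSO, 566 ± 102 CPM after F17, and in nhr-131 637 ± 194 CPM with DMSO and 611 ± 170 CPM after F17 (SD, n = 5). Its F17 effect was -0.07 in wild type (SE 0.26, adjusted p = 0.986) and -0.06 in nhr-131 (SE 0.26, adjusted p = 1, edgeR). The alcohol dehydrogenase gene sodh-1 was at 196 ± 76.1, 237 ± 64.3, 207 ± 82.0 and 158 ± 43.1 CPM in the same order, with effects of 0.28 (SE 0.32) and -0.39 (SE 0.32) that did not pass.

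Some low-level members also varied with the stage score, as did 54% of all genes by the slope over 20 libraries. dhs-15 read 0.547 to 1.17 CPM in the younger libraries and 0 to 0.271 CPM in the others, and dhs-4 read 10.8 to 15.4 CPM and 2.18 to 7.27 CPM. dhs-26 went the other way, at 0 to 0.296 CPM in the younger libraries and 0.271 to 2.60 CPM in the others. Counts were few, 0 to 6 for dhs-15 in the other 14 libraries and 0 to 7 for dhs-26 in the younger ones. In those 14 alone the slope of dhs-15 was -0.89 (SE 1.41).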
